A study of Homo sapiens with 4 samples.

Results

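The BCL2 family decides whether the outer membrane of the mitochondrion is opened during apoptosis, and 10 of its genes were followed here in 4 RNA-seq libraries labelled as HepG2. They were taken by name from the 59050 genes counted. Of these, 7 encode pro-death proteins, namely the effectors BAX and BAK1 and the BH3-only genes BBC3, PMAIP1, BID, BIK and BCL2L11, and 3 encode pro-survival proteins, namely BCL2, BCL2L1 and MCL1. HepG2 is an established human cell line from a liver tumor. The study compared untreated cells (0 h, 2 libraries) with cells given doxorubicin, a drug that breaks DNA and thereby stabilizes p53, at 1 ug/ml for 24 h (2 libraries). No untreated library is labelled as 24 h, so the drug and the time cannot be told apart. The titles read nop53 for the untreated and p53 for the doxorubicin libraries. These words were taken here to mean p53 without and with activation by the drug, not a change of the gene. The labels name no other agent, all libraries carry the label of 1 line, and polyadenylated RNA was sequenced from replicates described as biological. Where nothing more is said of separate cultures, the p-values measure the spread between these libraries only.

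In the intrinsic pathway of apoptosis, BAX and BAK1 assemble into pores in the outer mitochondrial membrane, through which cytochrome c leaves and starts the caspases. The pro-survival proteins hold BAX and BAK1 in check, and the BH3-only proteins either occupy the pro-survival proteins or activate the effectors directly. After DNA damage p53 can act on transcription of BAX, BBC3 (also called PUMA) and PMAIP1 (also called NOXA), while many steps of the pathway act on proteins and leave no mark on the level of mRNA. BCL2L1, MCL1 and BCL2L11 are also spliced into forms of differing activity, which counts per gene do not separate.

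Promoter sequences are shown for 4 members, each holding a motif of a factor known to act on genes of the family or of promoters in general. They cover the 250 bases before the first listed start of each gene in RefSeq (GRCh38.p14) and are written from 5' to 3' on the strand of the gene. Of the 10 members, 8 matched the RefSeq promoters, with 13 starts in all. Capitals mark a match to the p53 half-site on BAK1, to the letters TGTTTAC or their reverse complement, a core bound by forkhead factors such as FOXO3, on BCL2L11, to TGACGT or its reverse complement, part of the cAMP response element, on PMAIP1, and to CCAAT or its reverse complement on BBC3.
BAK1, chr6:33580277-33580526, minus strand: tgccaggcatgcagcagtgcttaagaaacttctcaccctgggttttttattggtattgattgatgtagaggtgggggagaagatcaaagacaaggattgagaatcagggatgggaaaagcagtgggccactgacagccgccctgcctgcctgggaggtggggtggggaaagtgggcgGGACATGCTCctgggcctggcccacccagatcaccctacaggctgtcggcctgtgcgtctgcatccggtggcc
BCL2L11, chr2:111120664-111120913, plus strand: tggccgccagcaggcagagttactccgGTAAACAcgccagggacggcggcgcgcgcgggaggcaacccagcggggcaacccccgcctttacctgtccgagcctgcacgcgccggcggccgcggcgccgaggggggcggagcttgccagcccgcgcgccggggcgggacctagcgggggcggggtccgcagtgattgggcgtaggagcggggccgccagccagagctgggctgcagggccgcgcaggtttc
PMAIP1, chr18:59899746-59899995, plus strand: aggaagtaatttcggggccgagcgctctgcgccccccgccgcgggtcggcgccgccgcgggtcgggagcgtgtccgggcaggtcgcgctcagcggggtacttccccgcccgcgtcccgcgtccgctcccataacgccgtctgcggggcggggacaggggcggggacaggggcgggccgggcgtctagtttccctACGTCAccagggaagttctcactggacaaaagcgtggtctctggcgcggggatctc
BBC3, chr19:47232668-47232917, minus strand: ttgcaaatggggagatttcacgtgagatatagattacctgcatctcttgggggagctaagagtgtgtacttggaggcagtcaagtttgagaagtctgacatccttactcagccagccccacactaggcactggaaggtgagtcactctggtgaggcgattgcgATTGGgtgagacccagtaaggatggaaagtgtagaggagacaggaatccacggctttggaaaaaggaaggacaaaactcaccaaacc
The p53 half-site was found in these 250 bases for BAK1, 73 bases before the start, and for no other matched member, against 5.57% of all 35116 RefSeq promoters. TGTTTAC was found for BCL2L11 (2.98% of all promoters) and TGACGT for PMAIP1 (7.10%). CCAAT was found for BAK1, BAX, BBC3 and BCL2L11 (32.01%), and GGGCGG, the core of the site of SP1, for BAK1, BAX, BCL2L11, BID and PMAIP1 (42.6%), and both strands were searched for each motif. A member was counted if any of its starts held the motif, whereas the percentages are of single promoters. None of these motifs contains another. BBC3 and BAK1 had a GC content of 49.2% and 58.0% in this window, whereas PMAIP1 and BCL2L11 had 72.8% and 76.8%. A match describes letters and is not evidence of binding.

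Libraries held between 27572740 and 36272180 counts, so that 3 counts correspond to at most 0.109 CPM (the count of a gene scaled by the total count of its library). All 10 members passed the filter on low counts, as did 17479 genes in all. Genes that define liver cells were close to absent, which puts the HepG2 label in question. ALB had between 0 and 3 counts per library, 6 of 10 liver markers stayed under a CPM of 1 in every library, and the summed CPM of the list was 0.965 and 4.16 without drug (replicates 1 and 2) and 5.92 and 4.75 with drug. Squamous epithelial markers summed to 931, 1230, 1590 and 1330 in the same order, nearly all of it from KRT17, with KRT5 and KRT6A under a CPM of 1. Mesenchymal markers summed to 225, 169, 276 and 277, nearly all of it from COL1A1, COL3A1 and LUM, with COL1A2 under a CPM of 1. Blood markers summed to 1.41, 17.8, 0.874 and 1.16, with HBB at 0. In untreated replicate 2 CD14 alone had 16.7 CPM, while PTPRC, CD3E and CD79A stayed under a CPM of 1 in every library. The part of these differences in the results was not tested, and fewer cells of a type cannot be told apart from less RNA per cell in bulk libraries. Untreated replicate 2 stood apart from the other libraries, with 45.9% of the genes tested at least 2-fold away from untreated replicate 1, against 6.09% between the doxorubicin replicates. Log2 fold changes are therefore also given without it. CDKN1A, the p53 target that encodes the cell cycle inhibitor p21, stood at 380.1 and 865.6 CPM without drug and at 1003 and 880.3 with it, and MDM2, the p53 target that encodes the ubiquitin ligase of p53, had 43.0 and 32.1 against 54.8 and 56.6. CDKN1A differed by 0.44 on the log2 scale (adjusted p-value 0.800 from edgeR), by 1.16 without untreated replicate 2 (adjusted p-value 3.42e-05 from edgeR) and by 0.04 without untreated replicate 1 (adjusted p-value 0.895 from edgeR). MDM2 differed by 0.41 (adjusted p-value 0.781 from edgeR), by 0.23 without untreated replicate 2 (adjusted p-value 0.667 from edgeR) and by 0.71 without untreated replicate 1 (adjusted p-value 0.0106 from edgeR).

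The question of the comparison was which mRNAs differ once p53 has been activated by DNA damage. None of the 10 members was called by the quasi-likelihood test of edgeR, which called a gene at a Benjamini-Hochberg adjusted p-value under 0.05 where its log2 fold change was also 1 or more in size. It called 0 of the 17479 genes (0.0%). At an unadjusted p-value under 0.05 it gave 0 members, against 4.39% of all genes (768), made up of 2.66% higher and 1.73% lower after doxorubicin. The exact test of edgeR called 38 genes (0.217%), its likelihood ratio test 64 (0.366%), DESeq2 90 (0.515%) and the edgeR fit with a replicate block 20 (0.114%), with 0 members among them in each. Adjusted p-values of the members were between 0.773 and 1.00 in the quasi-likelihood test, and the lowest was 0.654 in DESeq2. In CPM the untreated and doxorubicin libraries overlapped for all 10 members, while 41.8% of all genes tested had groups that did not overlap. After scaling by TMM, BID alone did not overlap, against 39.3% of all genes.

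**Figure D1:**
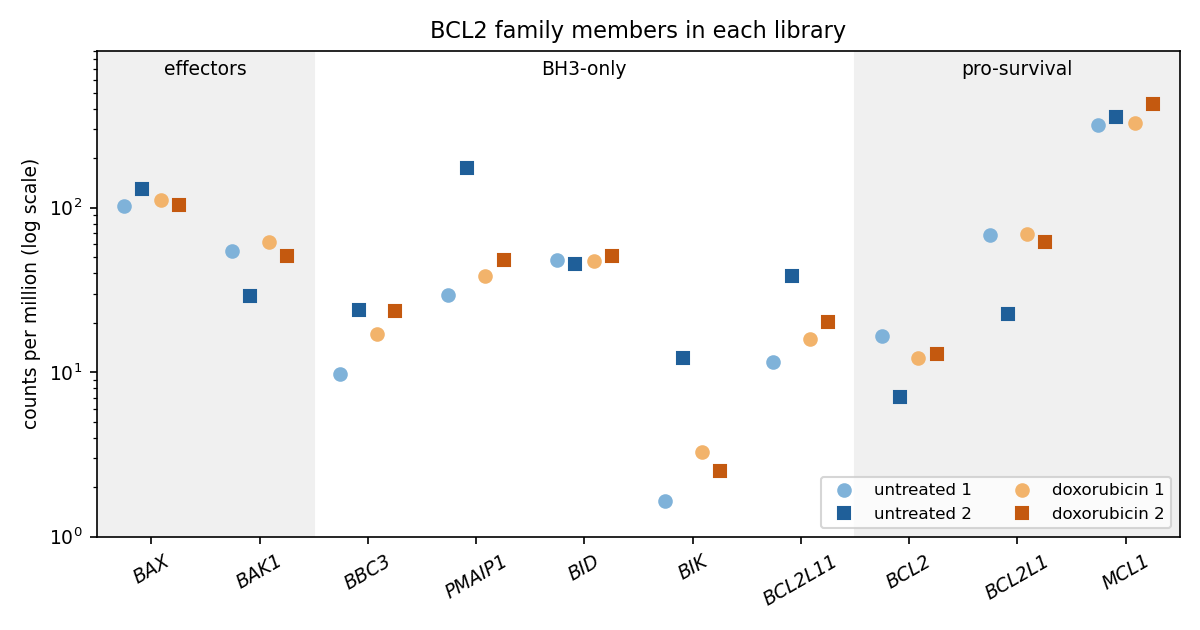
Level of each of the 10 BCL2 family members in CPM (vertical log axis) in the 4 libraries, with 1 point per library and no averaging. PMAIP1, BIK and BCL2L11 are highest and BAK1, BCL2 and BCL2L1 lowest in untreated replicate 2, whereas the doxorubicin replicates lie close together.

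The 2 effectors differed in how steady they were. BAX, the effector that moves from the cytosol to mitochondria, measured 102.9 and 130.7 CPM in the untreated replicates 1 and 2, and 111.7 and 104.2 CPM in the same replicates of doxorubicin. In CPM both treated libraries lay between the untreated ones. After TMM scaling BAX had 109.0 and 137.4 without drug and 109.2 and 95.7 with drug, so that doxorubicin replicate 2 was the lowest. Values of the other members follow in this order, first the libraries without drug, then those with drug. The log2 fold change of BAX, doxorubicin over untreated, was -0.27 (standard error 0.32, adjusted p-value 0.816 from edgeR), and without untreated replicate 2 it was -0.08 (standard error 0.23). BAK1, the effector that resides on the mitochondrial membrane, had 54.2 and 29.1 without drug and 61.9 and 50.9 after treatment. Here untreated replicate 2 was the only low library, 1.86-fold under untreated replicate 1. The log2 fold change of BAK1 was 0.28 (standard error 0.44) with both untreated libraries and -0.09 (standard error 0.24) without untreated replicate 2. In GENCODE release 44 (GRCh38), BAX lies on chromosome 19 (48954815 to 48961798) and BAK1 on chromosome 6 (33572547 to 33580293). The exons of BAK1 share 4.11% of their bases with GGNBP1 on the opposite strand, which had between 1 and 12 counts, and its pseudogene BAK1P1 had between 14 and 40.

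Among the BH3-only genes, those known as direct targets of p53 came first. BBC3 (chromosome 19, 47220822 to 47232766), which encodes a protein that binds every pro-survival member, had a CPM of 9.79 and 23.8 without drug and 17.1 and 23.6 with drug. Both treated libraries were above untreated replicate 1, and both were under untreated replicate 2. Its change on the log2 scale was 0.12 (standard error 0.55), with an adjusted p-value of 0.951 from edgeR. Without untreated replicate 2 it was 0.90 (standard error 0.29), with an adjusted p-value of 0.0316 from the same edgeR test. That was the lowest of the 10 members, but the change did not reach a log2 fold change of 1. In this fit, where the lone untreated library is assumed to vary like the treated ones, 4.61% of 18356 genes were higher at an adjusted p-value under 0.05 whatever their size. PMAIP1 (chromosome 18, 59899996 to 59904305), whose protein binds MCL1 and promotes its breakdown, had 29.5 and 174.3 without drug and 38.7 and 48.4 with drug. Untreated replicate 2 was 5.91-fold above untreated replicate 1, and both treated libraries were between them. Between the groups PMAIP1 differed by -1.38 on the log2 scale (standard error 0.80, adjusted p-value 0.773 from edgeR), 0.41 (standard error 0.25) without untreated replicate 2, and -2.09 (standard error 0.23) without untreated replicate 1.

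The remaining BH3-only genes are not primarily known as p53 targets. BID (chromosome 22, 17734138 to 17774770) encodes the protein that caspase-8 cuts to link death receptors to mitochondria. It had a CPM of 48.1 and 45.5 without drug and 47.4 and 51.0 with drug, the narrowest range among the members relative to its level. After TMM scaling the order became 50.9 and 47.8 against 46.3 and 46.8, with both treated libraries the lower. The log2 fold change of BID was -0.09 (standard error 0.33), and -0.12 (standard error 0.24) without untreated replicate 2. BIK (chromosome 22, 43110750 to 43129712), whose protein sits largely at the endoplasmic reticulum, had the fewest reads of the members in every library but untreated replicate 2, where BCL2 had fewer. Its CPM was 1.65 (exact Poisson 95% interval 1.26 to 2.13, from 60 counts) and 12.2 (10.98 to 13.57) without drug, and 3.26 (2.69 to 3.93) and 2.50 (1.95 to 3.17) with drug. Such intervals cover counting error only. The untreated libraries were 7.39-fold apart, more than any other member, and the log2 fold change was -1.39 (standard error 0.97), or 0.67 (standard error 0.42) without untreated replicate 2. BCL2L11 (chromosome 2, 111119378 to 111168444), also called BIM, encodes a strong activator of BAX and BAK1. It had 11.6 and 38.6 without drug and 15.9 and 20.1 with drug. Once more both treated libraries lay between the untreated ones, and the difference on the log2 scale was -0.63 (standard error 0.63), or 0.49 (standard error 0.28) without untreated replicate 2. The exons of BCL2L11 share 11.9% of their bases with the long non-coding MIR4435-2HG on the opposite strand, which had 511, 127, 420 and 287 counts in the order of the libraries, lowest where BCL2L11 was highest.

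Of the pro-survival genes, BCL2 and BCL2L1 were lower in untreated replicate 2 than in untreated replicate 1, and MCL1 was not. BCL2 (chromosome 18, 63123346 to 63320128), the founding member, had a CPM of 16.5 and 7.07 without drug and 12.2 and 12.95 with drug. Untreated replicate 2 was the lowest library and untreated replicate 1 the highest. Its log2 fold change was -0.07 (standard error 0.55), and without untreated replicate 2 it was -0.54 (standard error 0.27, unadjusted p-value 0.0481, adjusted p-value 0.256 from edgeR). In that fit 6.9% of all genes were lower at an unadjusted p-value under 0.05. BCL2L1 (chromosome 20, 31664452 to 31723989), which encodes BCL-XL, had 68.1 and 22.5 without drug and 69.3 and 62.1 with drug. The 3 libraries other than untreated replicate 2 were within a narrow range, and untreated replicate 2 was 3.02-fold under untreated replicate 1. BCL2L1 had a difference of 0.38 on the log2 scale (standard error 0.57), which was -0.20 (standard error 0.24) without untreated replicate 2 and 1.46 (standard error 0.26) without untreated replicate 1. Of its exon bases, 43.7% are shared with the long non-coding ABALON on the opposite strand, which had between 39 and 85 counts, and the use of strand in counting is not given in the sources used here. MCL1 (chromosome 1, 150560895 to 150579738), which encodes a pro-survival protein of very short life, had 320.5 and 354.9 without drug and 327.1 and 428.6 with drug. It was the member with the most counts in every library. The groups differed by -0.0004 on the log2 scale (standard error 0.28, adjusted p-value 1.00 from edgeR), and 0.09 (standard error 0.22) without untreated replicate 2.

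**Figure D2:**
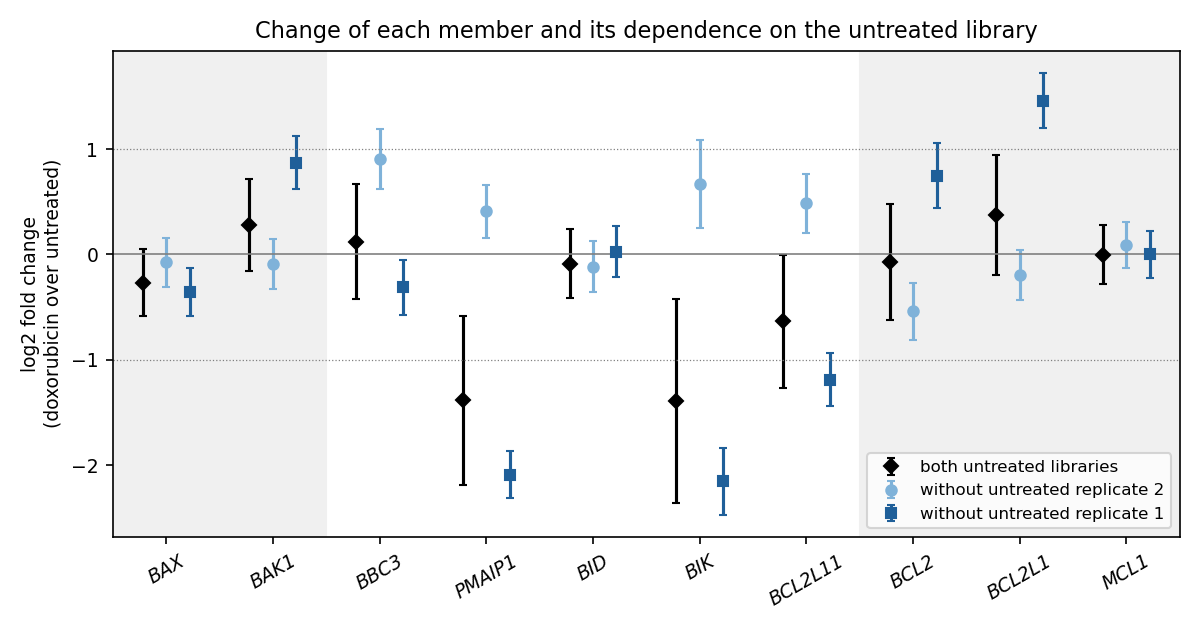
Log2 fold change of doxorubicin over untreated cells for each member, with standard errors from edgeR as bars, fitted with both untreated libraries (black), without untreated replicate 2 (light blue) and without untreated replicate 1 (dark blue); dotted lines mark a log2 fold change of 1 in size. PMAIP1 runs from 0.41 to -2.09 and BCL2L1 from -0.20 to 1.46 with the untreated library that is used, while BID and MCL1 stay near 0.

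For most members the direction depended on which untreated library was used. The sign of the log2 fold change was compared between the fits without untreated replicate 1 and without untreated replicate 2. It differed for 8 of the 10 members, all but BAX and MCL1. It also differed for 46.1% of all genes tested, a share that counts as differing any gene that either fit left out. The untreated replicates were at least 2-fold apart in 6 members (BBC3, PMAIP1, BIK, BCL2L11, BCL2 and BCL2L1), against 45.9% of all genes, and the doxorubicin replicates in 0 members, against 6.09%. In CPM, untreated replicate 2 was the highest library for BAX, BBC3, PMAIP1, BIK and BCL2L11 (36.6% of all genes) and the lowest for BAK1, BID, BCL2 and BCL2L1 (45.0%). Untreated replicate 1 was the lowest in CPM for BAX, BBC3, PMAIP1, BIK, BCL2L11 and MCL1 (30.2%). Without untreated replicate 1, PMAIP1, BIK and BCL2L11 were called as lower (23.2% of 19606 genes) and BCL2L1 as higher (21.2%) after doxorubicin, out of 44.4% called in all. BAK1 and BCL2 were also higher at an adjusted p-value under 0.05 there, with a smaller change (28.3% of genes, whatever their size). Without untreated replicate 2, 0 members were called in either direction, against 4.44% of 18356 genes (3.88% higher and 0.556% lower). Leaving out doxorubicin replicate 1 or doxorubicin replicate 2 gave 0 genes called (0.0%). Scaling by library size alone, which moved the median of all genes from 0.01 to 0.17, turned the sign of BID (0.070), BCL2 (0.087) and MCL1 (0.160).

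Levels were compared between members per kilobase of exon, from the exons of the basic set in GENCODE release 44. BAX (from 72.9 to 92.5 CPM per kilobase over the 4 libraries) and MCL1 (from 70.0 to 93.7) were the most abundant, and their ranges overlapped. PMAIP1 followed by its mean of 35.5, but it ranked 6 of 10 in untreated replicate 1 and 2 of 10 in untreated replicate 2, with 14.4 and 85.0 CPM per kilobase. BAK1 (from 13.2 to 28.0), BID (from 16.7 to 18.7) and BCL2L1 (from 5.68 to 17.5) came next, then BBC3 (from 4.67 to 11.3), BIK (from 1.74 to 12.9) and BCL2L11 (from 1.90 to 6.32). BCL2 was the lowest in every library, between 0.592 and 1.39 CPM per kilobase, and it was the only one whose range did not overlap that of its neighbour in the order.

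Pro-death and pro-survival members were next set against each other within each library, where the scaling of a library cancels apart from the prior count. The mean log2 CPM of the 7 pro-death members was 4.45 and 5.55 without drug, and 4.75 and 4.72 with drug. That of the 3 pro-survival members was 6.24 and 5.35 without drug, and 5.999 and 6.013 with drug. The difference, pro-death minus pro-survival, was therefore -1.79 and 0.21 without drug and -1.25 and -1.29 with drug. It was below 0 in 3 libraries and above 0 in untreated replicate 2 alone. From untreated to treated cells the mean difference changed by -0.48 on the log2 scale, with a standard deviation of 1.41 between the untreated and 0.03 between the treated replicates, so the change was smaller than the spread of the untreated cells. Set against untreated replicate 1 alone the balance was higher by 0.52 after doxorubicin, and set against untreated replicate 2 alone it differed by -1.48. No test was made of these means over members. In the fit, the median log2 fold change was -0.27 over the pro-death and -0.0004 over the pro-survival members, against 0.01 over all genes. Without untreated replicate 2 the medians were 0.41 and -0.20, against 0.05 over all genes.

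**Figure D3:**
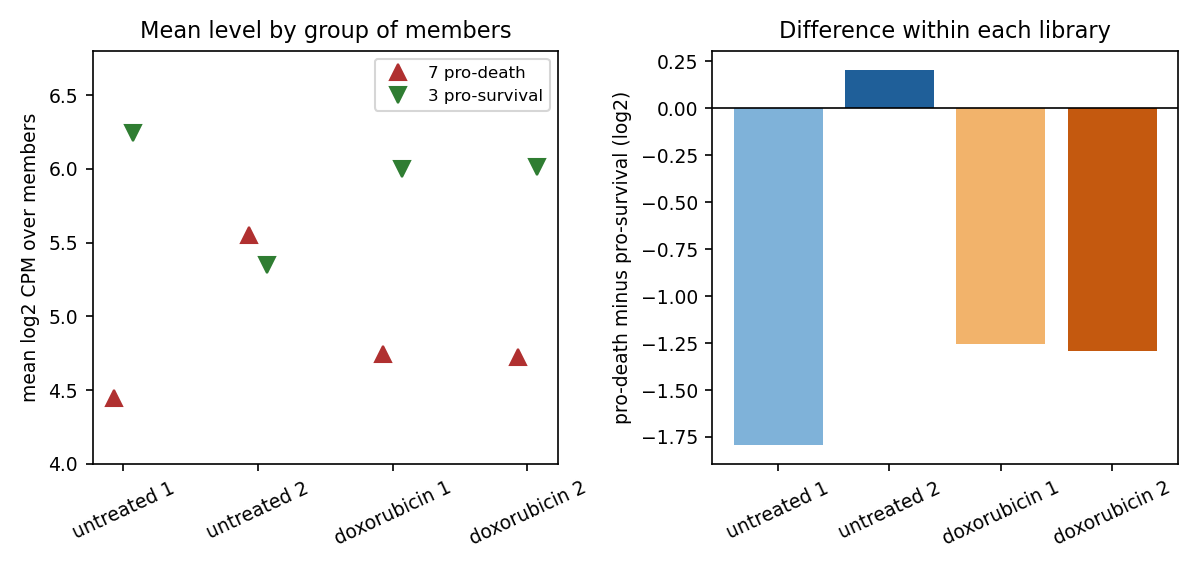
Left, mean log2 CPM of the 7 pro-death and the 3 pro-survival members in each library; right, their difference within each library as bars from 0 (log2 scale). The doxorubicin replicates, at -1.25 and -1.29, lie between untreated replicate 1 at -1.79 and untreated replicate 2 at 0.21.

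Summed over the pro-death members, the CPM was 257.7 and 454.1 without drug and 295.9 and 300.7 with drug, and over the pro-survival members it was 405.2 and 384.5 against 408.6 and 503.6. Of the 21 ratios of a pro-death to a pro-survival member, 18 had a higher mean with drug than in untreated replicate 1, and 18 had a lower mean than in untreated replicate 2. These ratios share members and are not independent. The log2 ratio of BAX to BCL2 counts was 2.64 and 4.21 without drug and 3.19 and 3.01 with drug. For PMAIP1 to MCL1, a pair whose proteins bind each other, it was -3.44 and -1.03 against -3.08 and -3.15. BBC3 to BCL2L1 gave -2.80 and 0.08 against -2.02 and -1.40. In these 3 ratios, as in 16 of the 21, both treated libraries were between the untreated ones. In the other 5 (BAX, BAK1 and BID over MCL1, BAK1 over BCL2, and BID over BCL2L1) a treated library lay outside them, as for BAX over MCL1, with -1.64 and -1.44 without drug and -1.55 and -2.04 with drug. The summed CPM of the pro-survival members was above both untreated values in both treated libraries, narrowly so in doxorubicin replicate 1 (408.6 against 405.2). In CPM, 30.3% of all single genes had this order. Unlike the ratios, this sum depends on the scaling of a library. MCL1 made up at least 79.1% of it. After TMM scaling MCL1 had 339.6 and 373.2 without drug and 319.7 and 393.5 with drug, so that doxorubicin replicate 1 was the lowest. The sum over the pro-survival members was then also lowest in doxorubicin replicate 1, so its order in CPM was not kept.

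Other genes of the pathway were taken as lists. Of 13 further BCL2 family genes, 9 passed the filter, and 0 were called with both untreated libraries. Their median log2 fold change was 0.36, against 0.01 over all genes tested, and 0.26 against 0.05 without untreated replicate 2. BNIP3, which encodes a mitochondrial protein with a BH3-like stretch that acts in removal of mitochondria and is known to respond to low oxygen, had a CPM of 65.5 and 33.9 without drug and 216.9 and 199.7 with drug. Its relative BNIP3L had 35.0 and 27.3 against 86.4 and 87.8. For both genes the treated libraries lay above both untreated ones, as they did for 30.3% of all genes in CPM. The log2 fold changes were 1.91 for BNIP3 (standard error 0.43, unadjusted p-value 0.00496) and 1.32 for BNIP3L (standard error 0.34, unadjusted p-value 0.00985), both with an adjusted p-value of 0.773 from edgeR. Without untreated replicate 2 both were called, at 1.52 and 1.17 (adjusted p-values 8.66e-08 and 0.00027 from edgeR).

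BCL2L12 had a CPM of 77.0 and 200.5 without drug and 62.7 and 58.0 with drug, a difference of -1.35 on the log2 scale (standard error 0.51, unadjusted p-value 0.042, adjusted p-value 0.773 from edgeR), and -0.50 without untreated replicate 2. BMF, a further BH3-only gene, had 2.73 and 22.1 against 7.69 and 8.81. Untreated replicate 1 was lowest (as in 30.2% of all genes) and untreated replicate 2 highest (as in 36.6%). BMF was named after its values were seen. Its log2 fold change was 1.45 without untreated replicate 2, -1.51 without untreated replicate 1 and -0.73 with both untreated libraries. The direction thus depended on the untreated library used. BCL2L2, the pro-survival BCL-W, had 20.7 and 9.004 against 27.9 and 27.02, BCL2L13 had 61.1 and 46.5 against 81.1 and 81.1, and BOK had 43.2 and 27.7 against 51.5 and 50.2. These 3 genes had log2 fold changes of 0.72, 0.43 and 0.36, with adjusted p-values from edgeR between 0.773 and 0.806, and of 0.26, 0.26 and 0.09 without untreated replicate 2. BAD and HRK had -0.01 and -0.14, and -0.18 and 0.31 without untreated replicate 2, so that the sign of HRK turned. BCL2A1, BCL2L10, BCL2L14 and BCL2L15 stayed under a CPM of 1 in every library.

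Downstream of the pore, all 17 genes of the channel, apoptosome and caspases were tested. None was called (0.0% of all genes) or had an unadjusted p-value under 0.05 in edgeR (4.39% of all genes). The log2 fold change was under 0 for 13 of them and above 0 for 4. The median was -0.22, against 0.01 over all genes (-0.20 against 0.05 without untreated replicate 2). Without untreated replicate 2, CASP9, the caspase that the apoptosome activates, differed by -0.80, and AIFM1, a mitochondrial flavoprotein, by -0.49. Both were named after their values were seen. In the other lists XIAP, BIRC2, FOXO1 and FOXO3 went the other way in that fit, by 0.535, 0.581, 0.559 and 0.542. CASP9 had 66.1 and 20.95 CPM without drug and 43.9 and 40.1 with drug, and differed by 0.92 without untreated replicate 1. AIFM1 had 135.8 and 94.8 CPM without drug and 109.4 and 105.0 with drug, and differed by 0.09 without untreated replicate 1. For both genes the treated libraries lay between the untreated ones. The lowest value was that of ENDOG, a mitochondrial nuclease, at -1.59 (standard error 0.76, and 0.03 without untreated replicate 2), from a CPM of 36.6 and 188.0 without drug and 43.7 and 39.1 with drug. The highest was that of CRADD, an adaptor of caspase-2, at 0.35 (standard error 0.65, and -0.22 without untreated replicate 2), with 8.44 and 2.74 against 8.33 and 7.69. Of 7 inhibitor of apoptosis genes 6 were tested and 0 were called, with a median log2 fold change of 0.78 (0.49 without untreated replicate 2). BIRC3, which encodes a ubiquitin ligase of the TNF receptor complex, had the highest value, 1.21 (standard error 0.84), from a CPM of 59.2 and 9.28 without drug and 68.5 and 109.6 with drug. It was 0.44 without untreated replicate 2 and 3.17 without untreated replicate 1. BIRC5, the mitotic gene that encodes survivin, had the lowest, -0.71 (standard error 0.32), from 247.9 and 351.9 against 213.3 and 195.3, and was -0.42 without untreated replicate 2.

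**Figure D4:**
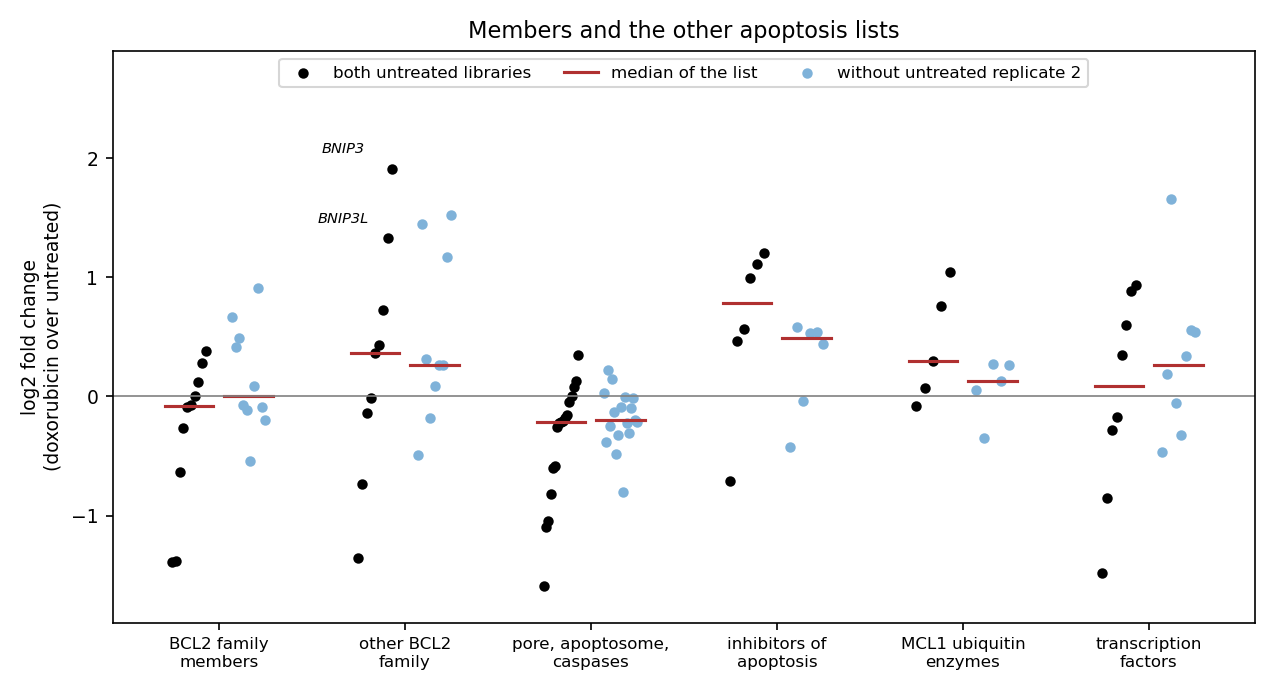
Log2 fold changes (doxorubicin over untreated) of the genes tested in each list, 1 point per gene, with both untreated libraries (black) and without untreated replicate 2 (light blue), and the median of each list as a red line. BNIP3 and BNIP3L are the highest of their list with both untreated libraries, at 1.91 and 1.32, and the 10 members are centred near 0, with medians of -0.08 and 0.01.

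The 5 ubiquitin enzymes that act on MCL1 protein were all tested and 0 were called. Their log2 fold changes were between -0.09 for FBXW7 (standard error 0.41) and 1.04 for BTRC (standard error 0.84), and BTRC had a CPM of 25.1 and 3.67 without drug and 31.4 and 35.3 with drug. BTRC was 0.26 without untreated replicate 2, just under MARCH5 at 0.27, and 3.09 without untreated replicate 1, and FBXW7 was 0.06 without untreated replicate 2. Of 9 transcription factors known to act on member genes 8 were tested and 0 were called. DDIT3, which encodes a stress factor that acts on BCL2L11 and BBC3, was named after its values were seen. It had 20.4 and 135.9 CPM without drug and 67.6 and 75.2 with drug. The log2 fold change of DDIT3 was 1.66 without untreated replicate 2, -1.02 without untreated replicate 1 and -0.29 with both untreated libraries. Its direction thus depended on the untreated library used. Of the 8 factors tested, untreated replicate 2 was the highest library for 4 and the lowest for 4. Whether any of them acts on the members here was not tested.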

How the data were processed

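Per the study's methods and the labels, low-quality reads and adapters were removed (FastQC, Cutadapt) and HISAT2 mapped the rest to hg38. The authors deposited the count of reads per gene for each library, without normalization. Counting was by HTSeq, and GENCODE release 31 stands in the files' headers; tool versions, strand and treatment of multi-mapped reads are not given in the sources used here. Samples were grouped by title, since the tag for treatment reads p53-miRNA on both doxorubicin samples.

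The tests on counts used edgeR 4.0.16 under R 4.3.3, with TMM factors, the filterByExpr filter, glmQLFit and glmQLFTest (prior count of 0.125), over 17479 genes, with DESeq2 1.42.0 as an alternative. The log2 CPM of the balance used a prior count of 2. Positions, exon lengths and overlaps came from GENCODE release 44 on the same build (GRCh38), promoters from RefSeq. Protein sequences were not analysed here. The result of 1 gene of the lists is not reported here. Other steps used Python 3.11.15 with pandas 2.3.3, NumPy 2.4.6 and SciPy 1.17.1. The tests were tried on simulated counts. The members, the lists and the rule for named genes (members, genes of a list with an unadjusted p-value under 0.05 or else its extremes, CDKN1A and MDM2) were chosen with earlier results of these data known. The alternatives are given in the closing section.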

Additional observations from a re-analysis of the deposited data

How the results depend on the processing

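With 2 libraries in a group and 1 that stood apart, the standard errors limit what can be seen. The number of genes called was 0 in the edgeR quasi-likelihood test, 38 with the exact test, 64 with the likelihood ratio test and 90 with DESeq2, and it was between 0 and 8697 (without untreated replicate 1) when a library was left out, with 815 without untreated replicate 2. The members called were between 0 and 4 and the genes of the other apoptosis lists called between 0 and 25 over the same omissions, where 4 list genes were called without untreated replicate 2. RLE factors, library size alone, no filter, a filter at 1 CPM in 2 libraries, and edgeR's older quasi-likelihood method (chosen after seeing the data) each called 0 genes, and none of these tests, scalings and filters called a member.

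The replicate block called 20 genes and 0 members. Its pairing comes from the numbers in the titles. The deviations of libraries with the same number correlated at 0.0219 over genes. With 2 libraries per group and untreated replicate 2 apart, this value cannot show whether they were run as pairs. The block changed the sign of BCL2 (0.051 on the log2 scale).

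Library size alone moved the median of all genes from 0.01 to 0.17 and gave BID 0.070, BCL2 0.087, MCL1 0.160 and FBXW7 0.073, all below 0 with TMM, and no filter gave MCL1 0.067. The other 95 of 100 values of members under these settings kept their sign and their call. The balance changed by -0.48 with both untreated libraries, between -1.48 and 0.52 when a library was left out, and reversed to 0.52 without untreated replicate 2. A prior count of 0.5, the median over members, the ratio of summed counts and the members that passed the filter (all 10) left it below 0. Ranges of the members with a library left out were -0.36 to -0.08 for BAX, -0.088 to 0.87 for BAK1, -0.31 to 0.90 for BBC3, -2.09 to 0.41 for PMAIP1, -0.12 to 0.027 for BID, -2.15 to 0.67 for BIK, -1.19 to 0.49 for BCL2L11, -0.54 to 0.75 for BCL2, -0.20 to 1.46 for BCL2L1 and -0.11 to 0.19 for MCL1. CRADD was between -0.22 and 1.47, ENDOG between -2.27 and 0.032, FBXW7 between -0.14 and 0.057, BIRC3 between 0.44 and 3.17, and BTRC between 0.26 and 3.09. The cause of these shifts was not tested.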
